A study of Mus musculus with 4 samples.

Results

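The mitochondrial genome encodes 37 genes, and the deposited expression table held a row for each of them among its 49671 genes. They were chosen as all rows placed on the mitochondrial chromosome: 13 messenger RNAs for subunits of the respiratory chain and ATP synthase, 2 ribosomal RNAs and 22 transfer RNAs. The samples were CD3+ T cells enriched from spleens of female F1 animals, whose C57BL/6 mothers were heterozygous for a deletion of Xist and whose fathers were Mus musculus castaneus. All 4 cultures were stimulated for 48 hours. Anti-CD3 fixed to the plate (1 µg/ml) engaged the T cell receptor complex, and anti-CD28 in solution (10 µg/ml) engaged the costimulatory receptor CD28. All 4 cultures received 2.5 µM IMD-0354, an inhibitor of the kinase IKKβ in the NF-κB pathway. They form 1 group of 4 biological replicates, so no untreated or vehicle group enters any value here. No source used here gives the age of the animals. The total RNA libraries came from a stranded kit with a step that depletes ribosomal RNA, and the ribosomal RNA levels are those left after it.

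Mitochondrial DNA is a small circle inherited from the mother, which makes C57BL/6, the reference strain, the source of these animals' mitochondrial genomes. Both of its strands are transcribed from promoters in the control region by the polymerase Polrmt with the factors Tfam and Tfb2m. The long transcripts are cut, largely at the tRNAs that punctuate the messages, into separate rRNAs, mRNAs and tRNAs. The mRNAs are translated inside the organelle on ribosomes that pair the 2 mitochondrial rRNAs with nuclear-encoded proteins, and their products join nuclear-encoded subunits in complexes I, III, IV and V. Stimulated T cells are known for enlarging and remodelling their mitochondria as they begin to divide. Of the genes, 28 carry the sequence of the heavy-strand transcript and 9 that of the light-strand transcript (mt-Nd6 and 8 tRNAs).

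Levels are given in RPKM, reads scaled by gene length and library depth, which are per length and can be set beside each other across genes. Every mitochondrial gene had 0 allele-assigned reads in all 4 replicates, so the RPKM of both alleles together were used. A mean of at least 1 RPKM was reached by 22 of the 37 genes, compared with 23.1% of all genes. They were 12 of the 13 mRNAs, both rRNAs and 8 of the 22 tRNAs. At least 100 RPKM was reached by 10 of the 37, compared with 0.465% of all genes. Those 10 were 7 mRNAs, both rRNAs and the tRNA mt-Tw. The depth behind the scaling, recovered from the steps of the values, was 1.14e+08, 9.54e+07, 1.11e+08 and 1.04e+08 reads in replicates 1 to 4. Mitochondrial reads numbered 2862401, 4522544, 4323322 and 6762579. They made up 2.50%, 4.74%, 3.88% and 6.52% of the scaling total (4.41% ± 1.68, SD, n = 4), lowest in replicate 1 and highest in replicate 4. The mRNA part of this share was 2.24%, 3.69%, 3.40% and 3.57%, highest in replicate 2. The rRNA part, left after depletion, was 0.259%, 1.05%, 0.477% and 2.94%. In replicate 4 rRNA made up 45.1% of the mitochondrial reads, against 10.4% in replicate 1.

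The cells carried the markers of their label. All 11 T cell markers lay at 1 RPKM or more, between 8.79 and 77.3, and their summed level was 412, 403, 380 and 421 RPKM in replicates 1 to 4. B cell markers summed to 4.61 to 10.5 RPKM with 3 of 5 at 1 RPKM or more, erythroid markers to 0.823 to 4.88 with 2 of 3, stromal markers to 2.98 to 3.87 with 1 of 2, and NK markers to 0.0521 to 0.231 with 0 of 2. Myeloid markers summed to 81.3, 138, 47.8 and 31.7 RPKM with 3 of 6 at 1 RPKM or more. Lyz2, a lysozyme of macrophages and granulocytes, averaged 41.3 RPKM and S100a8, a granulocyte protein, 28.3 RPKM. In samples of many cells, fewer cells of a type and less RNA per cell cannot be told apart.

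The mRNAs fell into widely separated ranges of level along the circle, and the step between them lay at the edges of a stretch that the nuclear genome also holds. The 7 mRNAs at least partly outside that stretch had means of 186 to 16299 RPKM. The 6 mRNAs wholly inside it had means of 0.0236 to 6.45 RPKM. The nuclear stretch is on chromosome 1, chr1:24611535-24616197 (GRCm38, minus strand), where GENCODE M21 annotates 7 pseudogenes. Its aligned part, which starts at chromosome 1 position 24616188 and leaves out the first 9 bases of Gm29216, corresponds to positions 6390 to 11042 of the mitochondrial genome, 4653 bases that run from inside mt-Co1 to inside mt-Nd4. Over the 4140 bases that the 7 pseudogenes align to mitochondrial genes there were 2 mismatches, an identity of 99.95%. They lie in mirror order on 1 line, 5 of them exactly and Gm10222 and Gm28439 with a shift of 1 base. The stretch wholly covers 11 mitochondrial genes, namely mt-Co2, mt-Atp8, mt-Atp6, mt-Co3, mt-Nd3, mt-Nd4l and 5 tRNAs. It covers 483 bases (31.3%) of mt-Co1 and 876 bases (63.6%) of mt-Nd4.

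Some stretches of the copied genes are shown because they carry the closeness of the copies. The first bases of mt-Co2 and mt-Co3 are the same letter for letter in their chromosome 1 copies Gm28661 and Gm28437, so a read from within them matches both places. The stretch of mt-Co1 shown first holds 1 of the 2 mismatches, with the differing base in capitals. Counted from 1 at the first base of the mitochondrial gene, the substitutions are A1066T between mt-Co1 and Gm29216 and T3C between mt-Nd3 and Gm28438. All sequences are from the GENCODE M21 transcripts, written 5′ to 3′ on the strand of the transcript.
mt-Co1, bases 1063 to 1122: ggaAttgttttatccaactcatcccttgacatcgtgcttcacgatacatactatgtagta
Gm29216, bases 10 to 69: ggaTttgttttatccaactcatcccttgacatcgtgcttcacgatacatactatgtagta
mt-Co2 and Gm28661, bases 1 to 60: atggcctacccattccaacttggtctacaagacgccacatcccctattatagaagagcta
mt-Co3 and Gm28437, bases 1 to 60: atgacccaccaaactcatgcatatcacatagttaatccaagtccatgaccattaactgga

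Identity to the mitochondrial gene was 100% for 5 of the 7 pseudogenes: Gm28661 over 681 bases of mt-Co2, Gm10925 over 678 bases of mt-Atp6, Gm28437 over 783 bases of mt-Co3, Gm10222 over 294 bases of mt-Nd4l and Gm28439 over 876 bases of mt-Nd4. Gm28438 matched mt-Nd3 at 99.7% of 345 bases. The share of each gene's 50-base windows found unchanged in a nuclear transcript was 100% for mt-Co2, 99.9% for mt-Co3, 99.5% for mt-Atp6, 98.8% for mt-Nd4l and 98.0% for mt-Nd3. It was 62.2% for mt-Nd4, 51.1% for mt-Co1, 8.19% for mt-Nd2, 7.61% for mt-Nd5 and 1.04% for mt-Rnr2. It was 0% for mt-Nd1, mt-Cytb, mt-Nd6 and mt-Rnr1. The search covered annotated nuclear transcripts and not the whole genome, and mt-Atp8 and the tRNAs of the stretch lie where chromosome 1 has no annotated transcript, so their share was not determined. Across the 12 mRNAs other than mt-Atp8, mean RPKM and the window share had a Spearman's rho of -0.77, given as a description of genes that share libraries and neighbouring sequence. How the authors counted reads with more than 1 matching place is not stated in the labels or file headers. The part of the copies in the low levels was not tested.

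**Figure D1:**
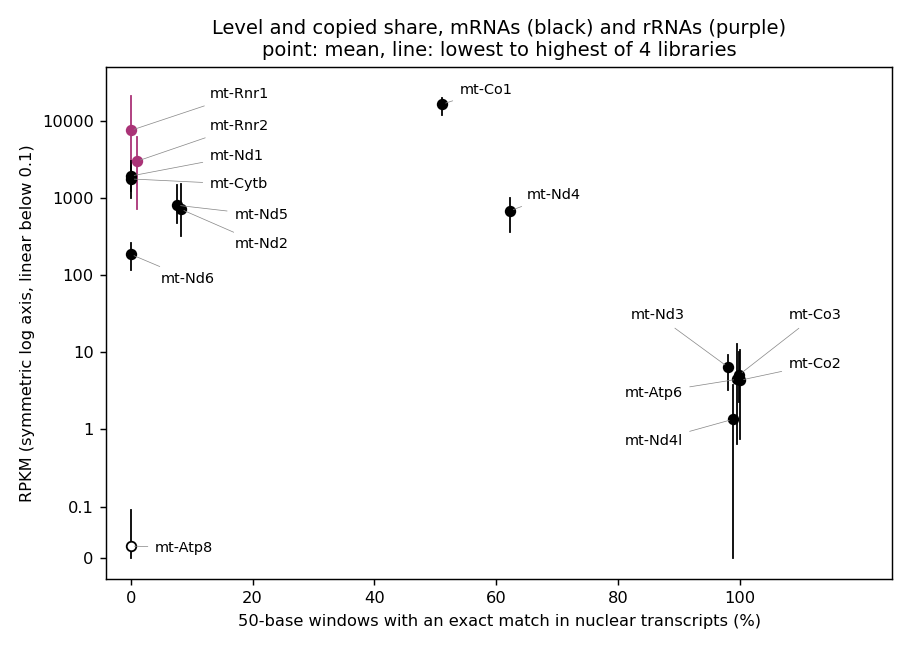
Mean RPKM of each mitochondrial mRNA and rRNA (log axis, linear below 0.1 RPKM) against the percentage of its 50-base windows found unchanged in a nuclear transcript. Lines run from the lowest to the highest of 4 replicates, and the open point marks mt-Atp8, drawn at 0% because its share was not determined. The 5 mRNAs with shares of 98.0% to 100% sit at means of 1.35 to 6.45 RPKM, while mt-Co1 and mt-Nd4, with 51.1% and 62.2%, sit at 16299 and 679 RPKM.

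The pseudogenes themselves were read at low levels. Gm29216, the copy of the end of mt-Co1, was at 7.91, 18.7, 25.3 and 14.3 RPKM in replicates 1 to 4 (16.6 ± 7.33, SD, n = 4). It was the only one of the 7 with a mean above 1 RPKM. Gm28437 had 0.212, 0.937, 0.321 and 0.591 RPKM, Gm28439 had 0.279, 0.335, 0.472 and 0.374 RPKM, and Gm28661 had 0, 0.985, 0 and 0.0425 RPKM. Gm10925 averaged 0.117 RPKM and Gm10222 0.0492 RPKM, and Gm28438 was at 0. All 7 had 0 allele-assigned reads, and the share of all nuclear genes with 0 such reads is not given here. Older copies elsewhere were also near 0. On chromosome 2, Gm13340 (97.6% identical to mt-Co1) averaged 0.112 RPKM, Gm13341 (97.6% identical to mt-Co2) 0.472 RPKM and Gm13339 (96.7% identical to mt-Nd2) 0.00945 RPKM. Gm11512 on chromosome 11 (mt-Co1) averaged 0.0139 RPKM, and Gm11407 on chromosome 4 and Gm4076 on chromosome 13 (both mt-Nd5) were at 0, as was Gm20594 on chromosome 6 (mt-Rnr2). Gm13340 had 9 and Gm11512 had 4 allele-assigned reads over all libraries, and the other older copies named here had 0.

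**Figure D2:**
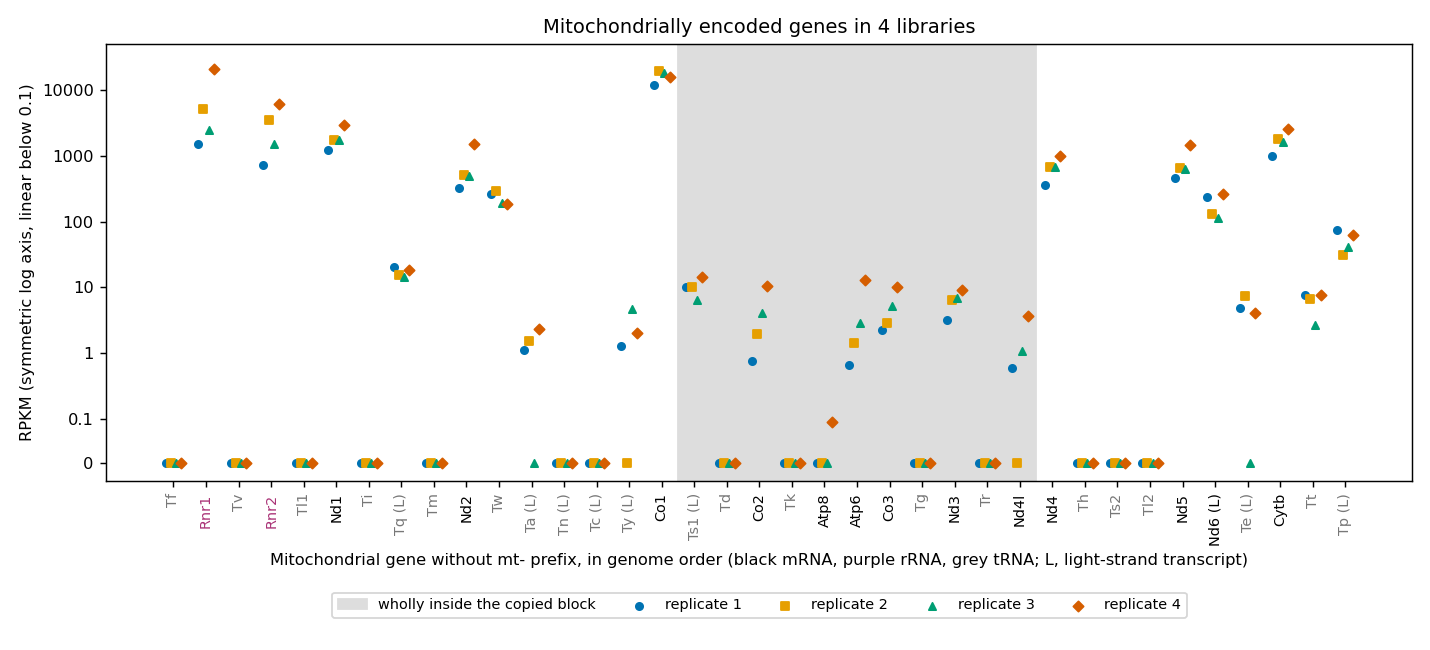
RPKM of the 37 mitochondrial genes in genome order, 1 point per replicate, on an axis that is logarithmic above 0.1 RPKM and linear below it. The grey shade marks the genes wholly inside the stretch copied on chromosome 1, whose 6 mRNAs stay at or below 12.9 RPKM, and 14 tRNAs lie at 0 in all 4 replicates.

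The 2 rRNAs, the RNA cores of the small and large mitochondrial ribosomal subunits, varied most among the abundant genes. mt-Rnr1 (12S, chrM:70-1024) was at 1519.7, 5202, 2504 and 20574 RPKM in replicates 1 to 4, or 7449.9 ± 8887 (SD, n = 4). Replicate 4 was highest and replicate 1 lowest, and the mean without replicate 4 was 3075 RPKM. mt-Rnr2 (16S, chrM:1094-2675) was at 722, 3500.4, 1505 and 6187 RPKM (2979 ± 2438), in the same order of replicates, and averaged 1909 RPKM without replicate 4. The small-subunit rRNA was the higher of the pair in 4 of 4 libraries, by 2.10, 1.49, 1.66 and 3.33 times. The log2 ratio of mt-Rnr2 to mt-Rnr1 on values plus 1 RPKM was -1.03 ± 0.51 (SD, n = 4; exact two-sided sign-flip permutation p = 0.125, adjusted p = 0.188 over 6 ratios). With 4 libraries 0.125 is the smallest p this test can give, so no ratio could pass 0.05, and the tests measure only the spread between these cultures. The summed rRNAs reached 2242, 8703, 4008 and 26761 RPKM (10429 ± 11225, SD, n = 4), or 4984 on average without replicate 4. The summed mRNAs reached 15455, 25215, 23326 and 25483 RPKM (22369.8 ± 4709). rRNA was below mRNA in 3 of 4 libraries, with a log2 ratio of -1.70 ± 1.30 (SD, n = 4; exact permutation p = 0.25, adjusted p = 0.25), and in replicate 4 the log2 ratio was 0.07. When only mRNAs with under 10% of windows in nuclear transcripts were summed, the log2 ratio was 0.43 ± 0.98 (SD, n = 4; exact permutation p = 0.5), with 2 libraries in each direction.

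Complex IV, cytochrome c oxidase, passes electrons from cytochrome c to oxygen, and mitochondria make its 3 core subunits. mt-Co1, the catalytic subunit (chrM:5328-6872), was the highest mitochondrial gene and ranked 3 among all genes by mean. It was at 11828, 19690, 18027 and 15650 RPKM (16299 ± 3411, SD, n = 4), lowest in replicate 1 and highest in replicate 2. It held 76.5%, 78.1%, 77.3% and 61.4% of the summed mRNA RPKM. mt-Co2, which carries the copper centre that takes electrons from cytochrome c (chrM:7013-7696, wholly inside the copied stretch), was at 0.754, 1.93, 4.06 and 10.6 RPKM (4.34 ± 4.40, SD, n = 4). These values stood on 59, 126, 309 and 753 reads, and the mean without replicate 4 was 2.25 RPKM. mt-Co3 (chrM:8607-9390, also inside) was at 2.29, 2.85, 5.19 and 10.2 RPKM (5.12 ± 3.59). The RPKM of mt-Co1 was 15683, 10197, 4443 and 1474 times that of mt-Co2 in the 4 libraries. These are ratios of RNA read levels and not of the protein subunits, which the complex holds in equal number. The mean of the 3 was 5436 ± 1137 RPKM, and it was 16299 RPKM when genes wholly inside the copied stretch were left out.

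Complex I, NADH dehydrogenase, takes electrons from NADH, and 7 of its membrane subunits are mitochondrial. mt-Nd1 (chrM:2751-3707) was at 1239.9, 1730.1, 1721 and 2964 RPKM (1914 ± 736, SD, n = 4). mt-Nd5 (chrM:11742-13565), a proton-pumping subunit, was at 465, 657, 636 and 1445 RPKM (801 ± 438). mt-Nd2 (chrM:3914-4951) was at 323, 518, 491 and 1523 RPKM (714 ± 546). Replicate 4 stood above the other 3 libraries in each, and the mean of mt-Nd2 without it was 444 RPKM. mt-Nd4 (chrM:10167-11544) was at 365, 677, 667 and 1007 RPKM (679 ± 262), with its first 876 bases inside the copied stretch. mt-Nd3 (chrM:9459-9806) and mt-Nd4l (chrM:9877-10173) lie wholly inside. mt-Nd3 was at 3.22, 6.45, 6.94 and 9.20 RPKM (6.45 ± 2.47), and mt-Nd4l at 0.589, 0, 1.09 and 3.73 RPKM (1.35 ± 1.65), or 0.559 RPKM on average without replicate 4. mt-Nd4l and mt-Nd4 share 7 bases of the same strand, and reads across them belong to either gene. The mean of the 7 complex I mRNAs was 614 ± 286 RPKM (SD, n = 4). Complex IV lay above complex I in 4 of 4 libraries, with a log2 ratio of 3.22 ± 0.59 (SD, n = 4; exact permutation p = 0.125, adjusted p = 0.188). mt-Co1 carried that order, since mt-Co2 and mt-Co3 lay below the mean of complex I in every library. The order turned in 4 of 4 libraries with geometric means (log2 ratio -1.01 ± 0.26) and with medians (-6.61 ± 0.33), both added after seeing the data.

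mt-Cytb, the cytochrome b of complex III and its only mitochondrial subunit (chrM:14145-15288), was at 989.95, 1798, 1648 and 2589 RPKM (1756 ± 657, SD, n = 4). It followed mt-Nd1 closely, and the values of both genes overlapped across libraries. Complex V, the ATP synthase, has mt-Atp6, which forms part of the proton channel, and mt-Atp8, a small subunit of its stator. Both lie wholly inside the copied stretch. mt-Atp6 (chrM:7927-8607) was at 0.655, 1.43, 2.88 and 12.9 RPKM (4.47 ± 5.70, SD, n = 4), or 1.65 RPKM on average without replicate 4. mt-Atp8 (chrM:7766-7969) was listed at 0 in replicates 1 to 3 and at 0.0945 RPKM in replicate 4, on 2 reads. A count of 0 allows up to 3 reads, which is 0.129, 0.154 and 0.132 RPKM for this gene in replicates 1 to 3, counting error only. Their mean was 2.25 ± 2.88 RPKM (SD, n = 4), and 0.827 RPKM without replicate 4. Both mRNAs share 43 bases, shown because reads from them fit either gene, with the start codon of mt-Atp6 in capitals.
mt-Atp8 and mt-Atp6, shared bases: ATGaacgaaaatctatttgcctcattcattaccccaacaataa

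In descending order of mean level the mRNAs were mt-Co1, mt-Nd1, mt-Cytb, mt-Nd5, mt-Nd2, mt-Nd4, mt-Nd6, mt-Nd3, mt-Co3, mt-Atp6, mt-Co2, mt-Nd4l and mt-Atp8. Neighbours in this order had ranges that did not overlap only between mt-Co1 and mt-Nd1, mt-Nd4 and mt-Nd6, and mt-Nd6 and mt-Nd3. The other neighbours had overlapping ranges across libraries. Within libraries, however, mt-Cytb was above mt-Nd5 by 1.79 to 2.74 times and mt-Co2 above mt-Nd4l in 4 of 4, while mt-Nd2 was above mt-Nd4 and mt-Atp6 above mt-Co2 in 1 of 4. Scaled to the share of windows not found in nuclear transcripts, an alternative added after seeing the data, mt-Co1 stood at 33355 RPKM and mt-Nd4 at 1797 RPKM, which moves mt-Nd4 from below mt-Nd2 to above mt-Cytb. Position along the heavy-strand transcript gave no clear order, with a Spearman's rho of -0.09 between start position and mean RPKM over 12 mRNAs and -0.20 over the 6 not wholly inside the copied stretch. The first 4 heavy-strand mRNAs were above the last 4 in 4 of 4 libraries, with a log2 ratio of 1.39 ± 0.11 (SD, n = 4; exact permutation p = 0.125, adjusted p = 0.188). With mRNAs of under 10% of windows in nuclear transcripts, which leaves out mt-Co1 and keeps 2 of the first 4 and 2 of the last 4, the log2 ratio was -0.08 ± 0.15 (SD, n = 4; exact permutation p = 0.375).

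Of the light-strand genes, mt-Nd6 and 6 tRNAs had reads. The labels and file headers do not state whether counting used the strand, and the part of opposite-strand reads in these values was not tested. mt-Nd6 (chrM:13552-14070), a complex I subunit and the only mRNA of this strand, was at 237, 132, 115 and 259 RPKM (186 ± 72.6, SD, n = 4). Replicates 1 and 4 were high and replicates 2 and 3 low, unlike any of the heavy-strand mRNAs. The level of mt-Nd1 was 5.23, 13.1, 14.9 and 11.5 times that of mt-Nd6. The log2 ratio of mt-Nd6 to the median heavy-strand mRNA was 0.54, -0.99, -1.10 and -0.98 in replicates 1 to 4 (-0.63 ± 0.78, SD, n = 4; exact permutation p = 0.25, adjusted p = 0.25). Replicate 1 was the 1 library with mt-Nd6 above that median. With 6 of the 12 heavy-strand mRNAs wholly inside the copied stretch, the median is a midpoint between the highest of those and the lowest of the others. Against the heavy-strand mRNAs not wholly inside the stretch, the log2 ratio was -2.77 ± 0.78.

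Most tRNAs had no reads, and all 22 together summed to 386, 365, 263 and 299 RPKM (328 ± 56.9, SD, n = 4). mt-Tw, the heavy-strand tRNA for tryptophan, was at 265, 293, 194 and 187 RPKM (235 ± 52.5, SD, n = 4) and held 71.3% ± 7.50 of the summed tRNA RPKM. It starts on the last 2 bases of mt-Nd2. mt-Tp (proline, light strand) was at 75.2, 31.0, 41.3 and 62.9 RPKM (52.6 ± 20.1), high in replicates 1 and 4 as mt-Nd6 was. mt-Tq (glutamine, light strand) was at 20.4, 15.4, 14.7 and 18.5 RPKM (17.2 ± 2.70), with those replicates again the highest. mt-Ts1 (serine, light strand, inside the copied stretch) was at 10.3, 10.03, 6.38 and 14.5 RPKM (10.3 ± 3.33), and mt-Tt (threonine, heavy strand) at 7.57, 6.73, 2.68 and 7.63 RPKM (6.15 ± 2.35). These 5 had reads in all libraries. A further 3, all of the light strand, were at 0 in some libraries: mt-Te averaged 4.04 RPKM, mt-Ty 2.00 RPKM (1.11 without replicate 3) and mt-Ta 1.26 RPKM.

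The other 14 tRNAs were listed at 0 in all 4 libraries, among them mt-Tc, mt-Td, mt-Tf, mt-Tg and mt-Th. For mt-Tf, the phenylalanine tRNA at the head of the heavy-strand transcript, a count of 0 allows up to 0.386, 0.462, 0.396 and 0.425 RPKM in replicates 1 to 4, counting error only. The tRNA genes are 59 to 75 bases long, and how well these libraries and the counting capture such short RNAs was not tested. A count of 0 is therefore not a measure of absent RNA. The tRNAs with reads were 2 of the 14 of the heavy strand and 6 of the 8 of the light strand. Inside the copied stretch 4 of the 5 tRNAs were at 0, and outside it 10 of the 17. The mean over the 14 heavy-strand tRNAs was still above that over the 8 light-strand tRNAs in 4 of 4 libraries, through mt-Tw. The log2 ratio of these means was 0.62 ± 0.51 (SD, n = 4; exact permutation p = 0.125, adjusted p = 0.188). The tRNAs shown are mt-Tw and mt-Tp, the highest of each strand, and mt-Tf and mt-Tl1, which had no reads although they border the abundant mt-Rnr1 and mt-Nd1. Capitals mark the bases that mt-Tw shares with mt-Nd2.
mt-Tw: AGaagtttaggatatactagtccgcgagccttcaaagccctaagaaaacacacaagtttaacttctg
mt-Tp: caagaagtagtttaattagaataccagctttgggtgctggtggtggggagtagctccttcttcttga
mt-Tf: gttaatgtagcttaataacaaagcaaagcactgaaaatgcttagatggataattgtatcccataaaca
mt-Tl1: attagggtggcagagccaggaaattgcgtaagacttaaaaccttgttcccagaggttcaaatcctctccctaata

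The replicates differed far more in mitochondrial than in nuclear genes. Among the 9 mRNAs and rRNAs at least partly outside the copied stretch the median coefficient of variation was 39.1% (20.9% to 119%), and among the 6 mRNAs inside it 112%. It was 38.2% for the 8 tRNAs with reads, 11.1% for 221 nuclear genes of at least 100 RPKM and 11.5% for 77 nuclear-encoded respiratory chain subunits. Some tRNAs and some mRNAs inside the stretch rested on few reads, such as mt-Ta on 9, 10, 0 and 17. The part of counting error in their spread was not tested. The direction was shared by most heavy-strand mRNAs and both rRNAs. The summed tRNAs were highest in replicate 1 instead, and mt-Nd6 was lowest in replicate 3 and highest in replicate 4. Replicate 4 was highest in 11 of the 12 heavy-strand mRNAs, the exception being mt-Co1. In a pattern picked after the values were seen, replicate 1 was lowest and replicate 4 highest in 9 of the 12 heavy-strand mRNAs and in both rRNAs, against 9.4% of 11431 nuclear genes of at least 1 RPKM. With replicate 4 also at least 2 times replicate 1, the count was again 9 of 12, against 0.586% of nuclear genes.

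Relative to each gene's own mean, the 5 heavy-strand mRNAs of at least 100 RPKM other than mt-Co1 had medians of 0.564, 0.904, 0.899 and 1.55 in replicates 1 to 4. The 6 mRNAs inside the copied stretch had 0.326, 0.500, 0.935 and 2.03, and the rRNAs 0.223, 0.937, 0.421 and 2.42. The 76 nuclear-encoded respiratory chain subunits of at least 1 RPKM stayed level, with medians of 1.03, 0.975, 0.921 and 1.05, as did mitochondrial ribosomal proteins with 1.00, 1.01, 0.951 and 1.04. Other features of the libraries also differed between replicates. Gm26917 and Gm42418, chromosome 17 genes chosen after their values were seen, fell in the opposite order to the mitochondrial rRNAs. RefSeq lists the latter gene, Gm42418, as a synonym of the ribosomal RNA gene Rn18s-rs5. Gm26917 was at 78390, 56794, 64442 and 51944 RPKM and Gm42418 at 12756, 8272, 8930 and 7800 RPKM. The summed myeloid markers were also lowest in replicate 4, but they were highest in replicate 2 and so followed neither order. The part of either in the mitochondrial values was not tested.

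**Figure D3:**
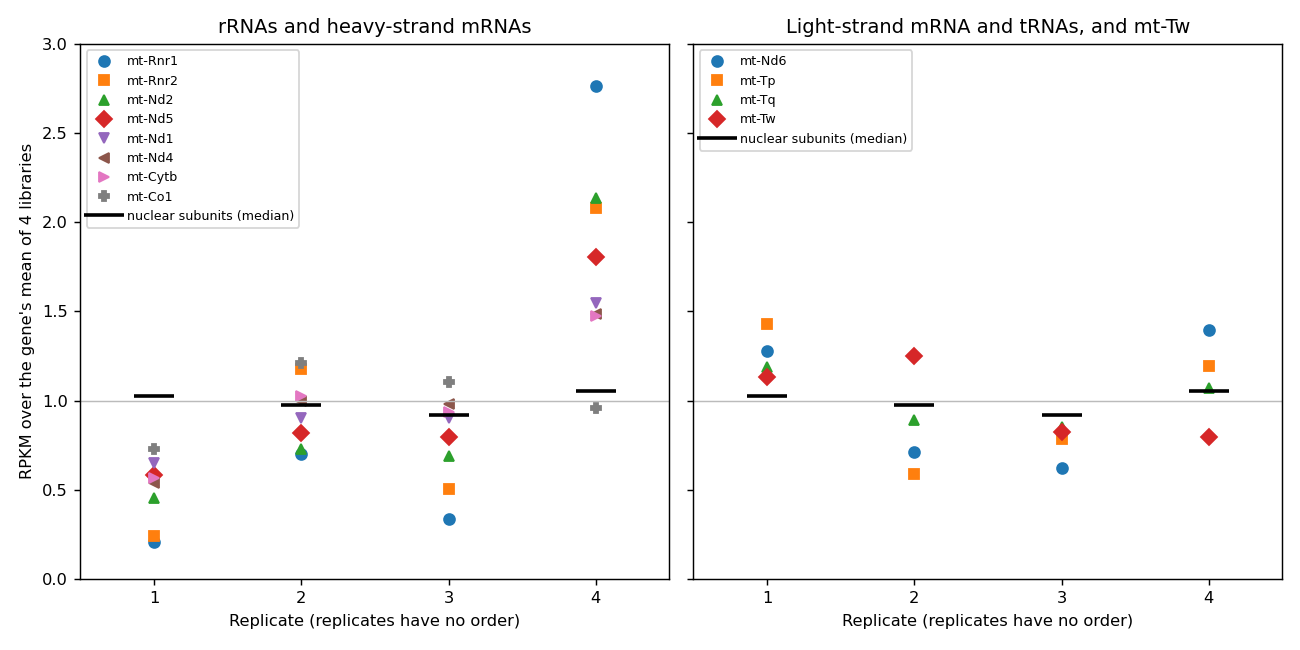
RPKM in each replicate over the gene's own mean, with the rRNAs and heavy-strand mRNAs on the left and mt-Nd6, mt-Tp, mt-Tq and mt-Tw on the right. Black bars give the median of the nuclear-encoded respiratory chain subunits, which stays between 0.921 and 1.05 while most heavy-strand genes are highest in replicate 4.

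The mean of the mitochondrial mRNAs lay above their nuclear-encoded partners in complexes I, III and IV, and in complex IV that mean was set by mt-Co1. mt-Co2, mt-Co3, mt-Nd3 and mt-Nd4l, all inside the copied stretch, lay below the median nuclear subunit of their complex. On RPKM plus 1, the log2 ratio of the mean mitochondrial mRNA to the median nuclear subunit was 5.72 ± 0.49 (SD, n = 4) in complex I, 6.18 ± 0.50 in complex III and 7.81 ± 0.36 in complex IV, each higher in 4 of 4 libraries. In complex V it was -3.07 ± 1.04, lower in 4 of 4, and both of its mitochondrial genes are inside the copied stretch. With the median over the mitochondrial mRNAs in place of the mean, an alternative added after seeing the data, complex IV turned to -2.11 ± 0.77 (lower in 4 of 4) and complex I was 5.63 ± 0.56. With their geometric mean, also added, complexes I and IV were 3.73 ± 0.46 and 1.59 ± 0.66. Each had an exact two-sided sign-flip permutation p of 0.125, adjusted p = 0.125 over 4 complexes. The nuclear subunits had medians of 9.92 RPKM in complex I, 23.9 in complex III, 22.8 in complex IV and 21.2 in complex V. The highest of each were Ndufa6 in complex I (72.7 ± 10.8 RPKM, SD, n = 4), Cyc1, the cytochrome c1 of complex III (28.3 ± 2.31), Cox8a in complex IV (80.0 ± 9.75) and Atp5b, the catalytic β subunit of complex V (73.0 ± 0.744). Complex II, succinate dehydrogenase, has no mitochondrial gene. Its 4 subunits had a median of 17.8 RPKM with Sdha highest (24.6 ± 1.85).

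**Figure D4:**
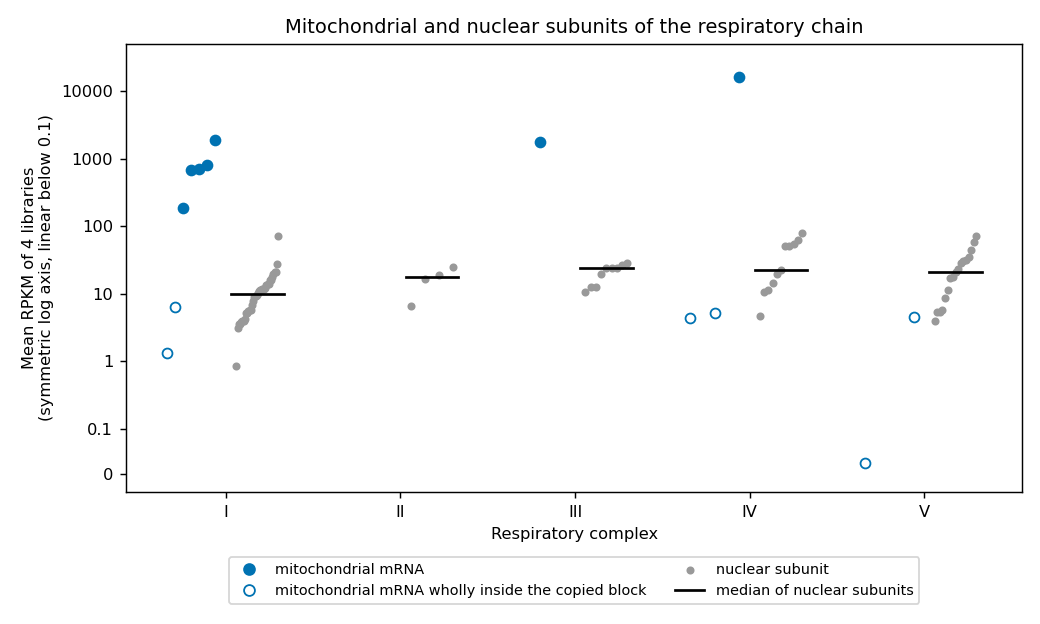
Mean RPKM of 4 replicates (log axis, linear below 0.1 RPKM) by respiratory complex, for the mitochondrial mRNAs, filled or, where wholly inside the copied stretch, open, and for the nuclear-encoded subunits (grey, with a bar at the median). Filled points lie at 186 to 16299 RPKM, above the medians of 9.92 to 23.9 RPKM of the nuclear subunits of those complexes, and open points lie at or below 6.45 RPKM.

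The nuclear genes that express or maintain the mitochondrial genome were read at ordinary levels. All 44 genes of a list of mitochondrial transcription, RNA processing, decay and DNA maintenance factors had at least 1 RPKM. Among all genes, 23.1% had a mean of at least 1 RPKM. The median of the list was 5.52 RPKM (1.00 to 17.9), beside 6.72 RPKM for all genes of at least 1 RPKM. Polrmt, the mitochondrial RNA polymerase, was at 7.26 ± 0.639 RPKM (SD, n = 4), and its partners Tfam and Tfb2m were at 6.30 ± 0.560 and 6.79 ± 0.619. The elongation factor Tefm was at 1.07 ± 0.356. Lrpprc and Slirp, which together bind and stabilise the mRNAs, were at 8.85 ± 0.638 and 2.10 ± 0.535. The highest of the list were Mtpap, the mitochondrial poly(A) polymerase (17.9), Hsd17b10, a subunit of RNase P (14.4), Tbrg4, an RNA-binding protein of the FASTK family (13.8) and Grsf1, an RNA granule protein (13.1). The lowest were Pde12 (1.00), which removes poly(A), Tefm, the rRNA methyltransferase Mrm2 (1.37) and 1110008L16Rik, the nuclease subunit Prorp of RNase P (1.42). Of 78 mitochondrial ribosomal proteins, 77 had at least 1 RPKM, with a median of 6.34 and a range from 0 (Mrpl53) to 26.0 (Mrpl32).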

How the data were processed

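RPKM values of both alleles together were computed and deposited by the authors, and read counts per allele were deposited by the authors without normalization, per the file headers. STAR 2.7.1a, featureCounts and mm10 are named in the submitters' processing notes. Neither the labels nor the file headers state the total that RPKM were scaled by, the use of strand or the treatment of reads with several matching places. No deposited sample column was left unused.

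RPKM times the gene's GENCODE M21 length falls on whole multiples of 1 read, which gave reads and depth. Of nuclear single-exon values under 1000 reads, 96.6% to 97.0% were whole within 0.02 of a read. All mitochondrial values above 0 were whole within a margin that widened in proportion to reads above 1000. The most abundant genes could not fail that margin, so for them it is no check. Windows of 50 bases of each gene were searched, both strands, in GENCODE M21 nuclear transcripts. Pseudogenes were aligned with Biopython 1.88. Log2 ratios within a library, on RPKM plus 1, were tested with the exact sign-flip permutation test over libraries (Benjamini-Hochberg adjustment, numpy 2.4.6, scipy 1.17.1), checked on simulated data. Named are all mRNAs and rRNAs, the 5 highest and 5 lowest tRNAs, the nuclear copies, Polrmt, Tfam, Tfb2m, Tefm, Lrpprc and Slirp with the 4 highest and 4 lowest of their list, and the highest nuclear subunit per complex. mt-Tl1, mt-Te, mt-Ty and mt-Ta were added after their values were seen. The genes and lists were chosen with earlier results of these data known. Alternatives were other pseudocounts, filters on low values and copied windows, geometric means and medians over a complex, rescaled RPKM, protein-coding genes only, and leaving out each library.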

Additional observations from a re-analysis of the deposited data

Results flagged for a closer look

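In 3 of 41 groups of 4 values checked, 1 library lay far from the other 3, measured as its gap to the nearest value over the whole range. Chance flags about 1 in 20 independent groups of normally distributed values. These groups share libraries and genes, so that rate cannot be set against the 3 of 41. For the RPKM of mt-Nd2, a complex I subunit, the gap was 0.837 of the range: replicate 4 had 1523 RPKM and the others 323 to 518. For mt-Atp8, a subunit of the ATP synthase stator, the gap was 1, since 2 reads in replicate 4 were the only ones in any library. For the log2 ratio of mt-Nd6 to the median heavy-strand mRNA it was 0.922, with replicate 1 at 0.54 and the others between -1.10 and -0.98.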

How the results depend on the processing

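Of 184 values of 25 results under the alternatives, 165 kept the direction of a ratio, moved a level by no more than the SD between libraries or kept a count within 1.5 times. Another 14 moved further and 5 changed sign. The SD is wide, so values among the 165 still differ in size. Some of the 165 could not change. Complex III rests on mt-Cytb alone, and filters on mRNAs do not touch the ratios of rRNAs or tRNAs to each other. The mitochondrial share of all RPKM is the same under any rescaling of a library. Rescaling RPKM used a fixed sum, the same in every library and larger than the summed RPKM of any of them. It therefore raised the levels largely as a change of unit. Summed levels became 65469 for mRNAs, 29692 for rRNAs and 966 for tRNAs. Means became 1778, 5105, 15969 and 6.32 for complexes I, III, IV and V. These rescaled levels are among the 14 values that moved further, and that label reflects mostly the larger sum. Keeping only mRNAs with under 10% of windows in nuclear transcripts moved complex I to 904 RPKM and changed the sign of the log2 ratios of summed rRNA to summed mRNA (0.43 ± 0.98) and of the first 4 to the last 4 heavy-strand mRNAs (-0.0798 ± 0.15), both smaller than their spread. It leaves out mt-Co1 and leaves complexes IV and V with no value. Geometric means gave 153 RPKM for complex I and 76.7 RPKM for complex IV. Requiring at least 1 RPKM in every library gave 8152 RPKM for complex IV, and log2 ratios of 2.15 for heavy-strand to light-strand tRNAs and -2.04 for mt-Nd6 to the median heavy-strand mRNA. In alternatives added after seeing the data, the log2 ratio of complex IV to complex I was -1.01 with geometric means and -6.61 with medians, that of mitochondrial to nuclear subunits of complex IV was -2.11 with medians, leaving out mRNAs wholly inside the copied stretch gave 16299 RPKM for complex IV, and scaling the level to uncopied windows gave 33355 RPKM for mt-Co1 and 1797 RPKM for mt-Nd4. Leaving out each library in turn changed the sign of no ratio; summed rRNA ranged from 4984 to 13157.5 RPKM and complex V from 0.827 to 2.89 RPKM. The lowest values, such as that of mt-Atp8 on 2 reads in replicate 4, rest on few reads and are limited by depth. In contrast, mt-Co2 at 1.93 RPKM in replicate 2 stood on 126 reads. No paired analysis was possible because the 4 libraries form 1 group.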

Other observations

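mt-Nd6, the light-strand mRNA, had the base makeup of the opposite strand, with 28.1% G and 5.97% C, whereas the heavy-strand mRNAs held 5.88% to 16.1% G. Of the 13 mRNAs, 9 began with ATG, and 3 (mt-Nd4, mt-Co3 and mt-Cytb) ended on a single T of the stop codon, which polyadenylation completes. Their last bases are shown beside those of mt-Nd1, mt-Nd2 and mt-Co1, which carry whole stop codons (stop bases in capitals). Level did not follow this feature: mt-Cytb and mt-Nd4 averaged 1756 and 679 RPKM, mt-Co3 5.12 RPKM, and mt-Nd1 and mt-Nd2 1914 and 714 RPKM.
mt-Nd4: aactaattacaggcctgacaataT
mt-Cytb: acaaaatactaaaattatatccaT
mt-Co3: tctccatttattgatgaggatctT
mt-Nd1: gcgggagtaccaccatacataTAG
mt-Nd2: ctagccccccaactaattaccTAG
mt-Co1: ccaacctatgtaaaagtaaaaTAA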
